A study of Mus musculus with 28 samples.

Results

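The synaptic vesicle and release machinery was followed as 42 listed presynaptic genes, out of 23995 genes in the FPKM tables. The members were chosen by name and not by a measured value, but with earlier results of these data known. They comprise 10 SNAREs, 7 calcium sensors and complexins, 8 vesicle membrane proteins and synapsins, 3 proteins of SNARE disassembly, 9 active zone proteins and 5 endocytic proteins.

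Neurotransmitter release depends on SNARE proteins, in which a vesicle protein of the VAMP family zippers together with a syntaxin and SNAP25 of the plasma membrane. Synaptotagmins sense calcium and complexins clamp or assist the SNARE complex, active zone scaffolds such as bassoon, piccolo, RIM, ELKS and liprin-α place vesicles at the release site, and NSF with its SNAP adaptors takes used complexes apart. Dynamin, endophilin, synaptojanin and amphiphysin retrieve vesicle membrane afterwards. Retinal ganglion cells (RGCs) send their axons to the superior colliculus (SC), where they form glutamatergic terminals.

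Axon-TRAP purifies ribosome-bound mRNA from those axons. C57BL/6 mice carried the RiboTag allele, in which Cre recombination adds a hemagglutinin (HA) tag to the ribosomal protein RPL22, and the tag was switched on by Pax6-alpha-Cre. HA immunoprecipitates were made from the SC of Cre-positive mice, from the SC of Cre-negative littermates and from retina, at E17.5, P0.5 and P7.5 and from adults, with 2 libraries for each of the 12 groups. Each precipitate pooled 6 SCs or 3 eyes. Cre-negative SC carries RiboTag without Cre, so it shows mRNA recovered without a tag. Pax6-alpha-Cre acts in progenitors of the peripheral retina, so tagged retina also holds cells other than RGCs, and the labels do not state Cre for the retina samples, which the study's text describes as Cre-positive. A further 4 adult libraries, 1 each of retina and of Cre-positive SC, either left as control or taken through ribosome run-off, had no replicate. Nothing in the labels says whether the 2 libraries of a group came from separate litters. The study's text calls the Cre-positive and Cre-negative SC libraries biological replicates and does not say so for retina. The p-values measure the spread between the 2 libraries of a group. In these bulk samples, fewer tagged axons and less mRNA per axon cannot be told apart.

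Depth was read from the FPKM steps that 1 fragment makes and is approximate, from 0.545 to 14.7 in units of 1000000 fragments a library, and from 0.771 to 2.18 in the 4 adult SC libraries. In the adult SC, 3 fragments on a transcript of 2000 bases correspond to 0.744 to 2.10 FPKM, so low members were not measurable there. Cre-negative E17.5 replicate 1 had the lowest depth, 0.545, where 3 such fragments correspond to 2.97 FPKM. The Cre-positive pair at P0.5 correlated at 0.95 with each other, but their median correlation with the other libraries was low, at 0.397 (the lowest of the 24) for replicate 1 and 0.456 for replicate 2. Cre-negative E17.5 replicate 1 (0.446) and Cre-negative adult replicate 2 (0.451) lay between them. Of 8 RGC markers, Rbpms was listed at 0 in all 16 SC libraries, and Pou4f1 was present in Cre-negative SC as well (66.5 and 2059.8 FPKM at E17.5). The 8 markers summed to 300 and 110 FPKM in Cre-positive SC at P0.5 and to 758 and 200 without Cre, of which Pou4f1 gave the greater part. Slc17a6 went the other way, with 12.2 and 5.13 FPKM against 1.46 and 0.223, and so did Nefl, with 47.5 and 17.54 against 4.22 and 2.82. Cre-negative adult replicate 1 held photoreceptor genes (76.5 FPKM summed over 6 markers).

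**Figure D1:**
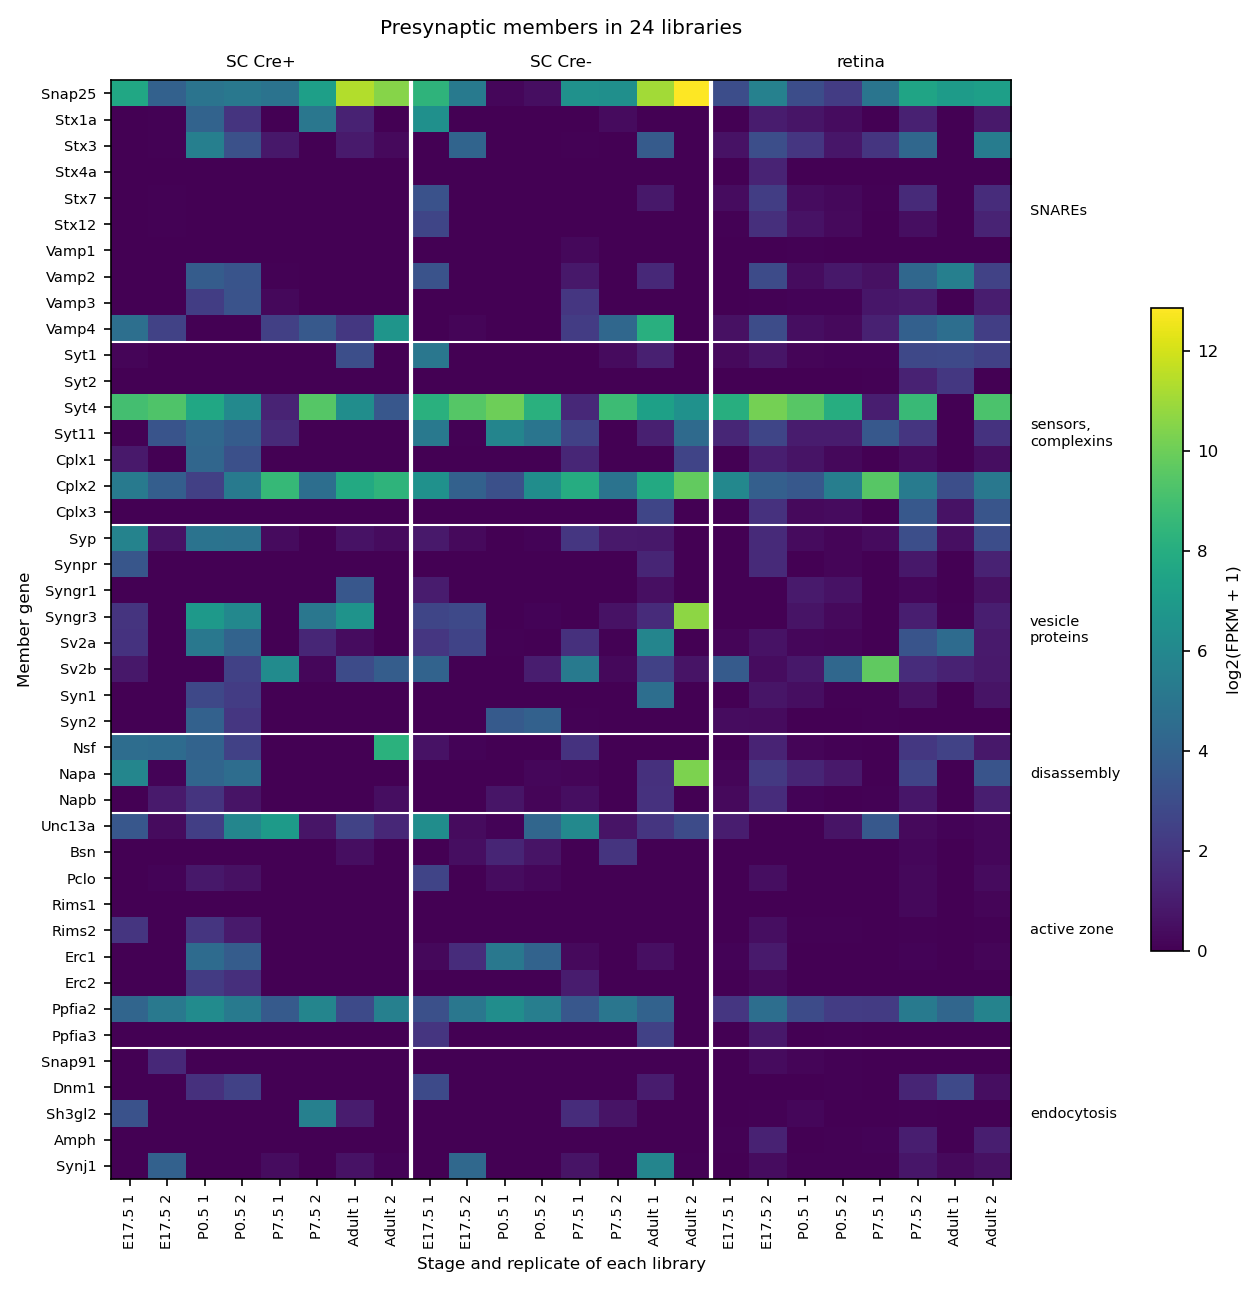
Heat map of log2(FPKM + 1) for the 42 members (rows, grouped by role) in the 24 libraries (columns, by source, stage and replicate). Only a few rows, such as Snap25, Syt4, Cplx2 and Ppfia2, are bright through most libraries, and the P0.5 Cre-positive pair holds many members that are dark elsewhere in SC.

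At the level of detection, P0.5 stood apart in Cre-positive SC. There, 21 of the 42 members (50%) reached 1 FPKM in both libraries, against 6 in Cre-negative SC and 4 in retina of the same age. Over all genes, 14.9% reached that level in Cre-positive SC at P0.5, 6.15% in Cre-negative SC and 6.04% in retina. At E17.5 the count was 6 members in both kinds of SC, at P7.5 it was 5 in both, and in the adult it was 7 in both. Sets of members, not only counts, were alike at P7.5, where Snap25, Vamp4, Syt4, Cplx2 and Ppfia2 reached 1 FPKM in both libraries of Cre-positive and of Cre-negative SC.

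The summed FPKM of the members was carried by few genes. Syt4, a synaptotagmin of dense-core and postsynaptic vesicles, was the highest member in 15 of the 24 libraries and gave up to 95.1% of the members' sum, in P0.5 retina. In the 4 adult SC libraries Snap25 was the highest member and gave 64.6% to 85.7% of the sum. Snap25 ranked between 7 and 28 among all genes in those 4 libraries, whichever the Cre genotype.

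Setting SC with Cre against SC without Cre asks which mRNAs were recovered because ribosomes were tagged. Differences were tested with limma on log2(FPKM + 1), for genes that reached 1 FPKM in 2 or more SC libraries of the 16, and called at an adjusted p under 0.05. This filter was passed by 31 members. The other 11 (Stx4a, Stx7, Stx12, Vamp1, Syt2, Cplx3, Syngr1, Pclo, Rims1, Snap91 and Amph) were too low to be tested in SC. A member that passes only because it is high in 1 group has to differ, so counts over the tested members describe them and no more.

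At P0.5, 8 of the 31 tested members were called higher in Cre-positive SC (25.8%) and none lower. Over all 5983 genes tested, 28.1% were called higher and 4.35% lower, so the share of members was close to the background. The 8 were the SNAREs Snap25, Stx3, Vamp2 and Vamp3, the complexin Cplx1, the vesicle proteins Syp and Sv2a, and the active zone scaffold Erc2. A further 4 members passed at an unadjusted p only (Dnm1, Rims2, Syn1 and Syngr3). In all, 12 of the 31 tested members were higher at an unadjusted p under 0.05, as were 2034 of all 5983 genes. Dnm1, Rims2 and Syn1 would not have passed the filter without the P0.5 Cre-positive libraries. The median difference of the tested members was 1.46 on the log2 scale, and that of all genes tested was 0.78. Without adjustment or fitting, both Cre-positive libraries were above both Cre-negative libraries for 16 of the 28 members present (57.1%), and the same held for 62.2% of all genes present. The opposite held for 3 members (Syt4, Syt11 and Bsn) and for 12.8% of genes. Syt4 had 201 and 64.5 FPKM with Cre and 1027 and 285 without, a gene singled out after its values were seen.

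Snap25, the plasma membrane SNARE of neurons, had 30.2 and 34.1 FPKM in Cre-positive SC at P0.5, and 0.152 and 0.390 in Cre-negative SC. The groups lay far apart, and the difference was 4.71 ± 1.41 (SE) on the log2(FPKM + 1) scale (limma adjusted p = 0.0254). Retina of the same age held 7.21 and 3.8 FPKM.

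Vamp2, its vesicle partner, had 12.3 and 9.30 FPKM in Cre-positive SC at P0.5 and was listed at 0 in both Cre-negative libraries (difference 3.55 ± 0.92, adjusted p = 0.0127). Vamp3, a VAMP of more general use in cells, had 3.99 and 8.69 FPKM against 0 and 0 (2.80 ± 0.59, adjusted p = 0.00381). Stx3, a syntaxin known from ribbon synapses and from exocytosis at growing processes, had 45.4 and 8.27 FPKM against 0 and 0 (4.37 ± 1.44, adjusted p = 0.0399). These 3 SNAREs were all listed at 0 in Cre-negative SC at P0.5, while the Cre-positive values of Stx3 differed more between replicates than those of the VAMPs.

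Cplx1, the complexin of fast release, had 17.7 and 7.76 FPKM in Cre-positive SC and was listed at 0 in Cre-negative SC (3.68 ± 0.84, adjusted p = 0.00613). Syp, the vesicle protein synaptophysin, had 28.7 and 28.3 FPKM against 0 and 0.0730 (4.83 ± 1.31, adjusted p = 0.0157). Sv2a, a transporter-like vesicle glycoprotein, had 35.1 and 15.9 FPKM against 0.0395 and 0, and its call was the nearest to the threshold (4.60 ± 1.59, adjusted p = 0.0480). The Sv2a call ended with a pseudocount of 0.1 (adjusted p = 0.0635), without the filter (0.0820) and with median-ratio scaling (0.05035), and that of Stx3 ended without the filter (0.0690). Erc2, an ELKS scaffold of the active zone, was low at 3.66 and 2.33 FPKM against 0 and 0 (1.98 ± 0.34, adjusted p = 0.000914). Erc2 and Vamp3 passed the filter only through the P0.5 Cre-positive libraries, so they had to differ and their p-values add no support.

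**Figure D2:**
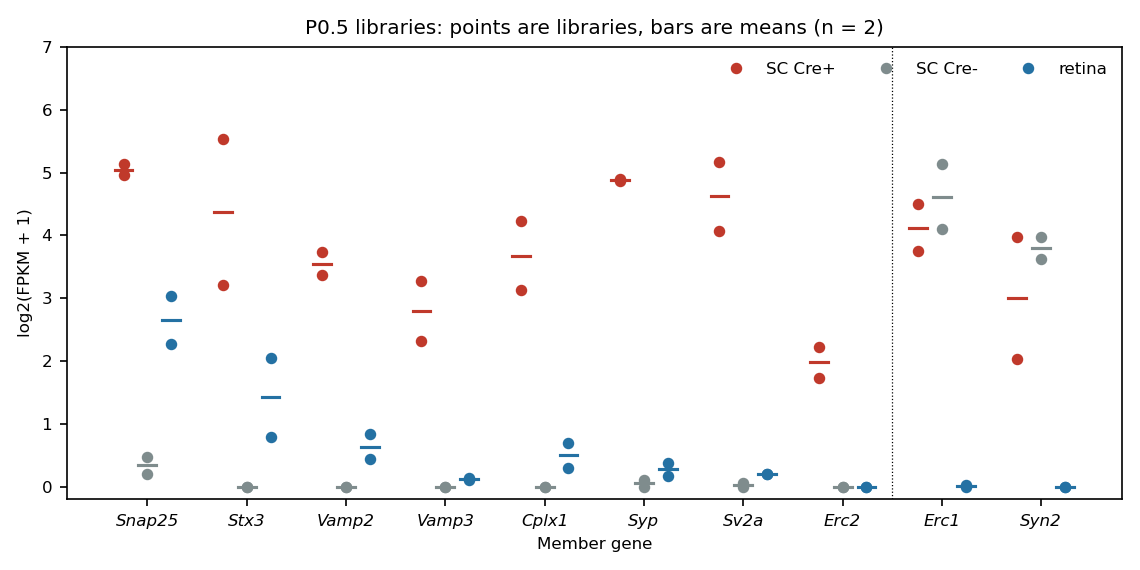
The P0.5 libraries of 10 members on a log2(FPKM + 1) axis, with points for libraries and bars for means (n = 2) of SC with Cre, SC without Cre and retina. Left of the dotted line the 8 called members have both red points above both grey points, and right of it Erc1 and Syn2 have red and grey points at like heights.

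Fewer members were called when any 1 of the 4 P0.5 libraries was left out. Snap25 was not called in any of these fits (adjusted p 0.0937 to 0.156). Leaving out Cre-positive replicate 1 left 1 call (Vamp3, with 6.27% of all genes called higher), and leaving out replicate 2 left 1 (Cplx1, with 12.1%). Without Cre-negative replicate 1 or 2, Cplx1, Erc2 and Vamp3 were called each time, with 18.8% of all genes. Fitting the 4 P0.5 libraries alone called 14 of 22 members, where 59.3% of all genes were called higher.

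Members that were as high without Cre are the counterpart. Erc1, the second ELKS scaffold, had 21.5 and 12.5 FPKM in Cre-positive SC at P0.5 and 34.0 and 16.2 in Cre-negative SC. Syn2, a synapsin that tethers vesicles to each other, had 14.7 and 3.10 FPKM against 11.3 and 14.8. Ppfia2, the gene of liprin-α2, had 72.6 and 37.3 FPKM against 79.3 and 44.7. None of these passed the Cre comparison, so related scaffolds such as Erc1 and Erc2 had unlike values in the untagged controls, a contrast that was noticed after the values were seen.

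Of 81 other presynaptic genes, which included further syntaxins, synaptotagmins, RAB3 GTPases, transporters, clathrin and its adaptors, 39 were tested and 14 were called higher at P0.5 (35.9%, against 28.1% of all genes), with none lower. They included Rab3a, the GTPase of synaptic vesicles (7.55 ± 2.23, adjusted p = 0.0240), the clathrin light chain Clta (5.60 ± 1.74, adjusted p = 0.0309) and Slc17a6, the vesicular glutamate transporter of RGCs (2.37 ± 0.47, adjusted p = 0.00239). At the other 3 stages none of these 39 genes was called in either direction.

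Promoter windows of the members (250 bases before to 50 after the RefSeq start, GRCm38.p6) were searched for short motifs. The share of members called at P0.5 was close to that of all genes, so the search is a description. A window was at hand for 36 of the 42 members and for 5 of the 8 called at P0.5. The GC box GGGCGGGG, read on both strands, was present in 16 of the 36 windows (44.4%), among them 4 of those 5, and in 17.8% of all 27025 promoters. The 4 windows are shown on the gene's own strand with the GC box or its reverse complement in capitals.
Cplx1, chr5:108550023-108550050, minus strand: ctccgccgagCCCCGCCCtcctcgtcat
Syp, chrX:7638521-7638548, plus strand: gaggagtatgGGGCGGGGgggagccatg
Sv2a, chr3:96181061-96181088, plus strand: ccccccccccCCCCGCCCcatcatcttt
Erc2, chr14:27622414-27622441, plus strand: gccccctcggCCCCGCCCggcccggccc

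The palindromic NRF1 motif was in 6 of the 36 windows (Stx12, Syp, Syngr1, Nsf, Bsn and Pclo, 16.7%) and in 4.78% of all promoters, and the CRE letters TGACGTCA were in 3 (Syn1, Napa and Sh3gl2, 8.33%) and in 1.88% of all promoters. In Syp the NRF1 match follows the GC box shown above.
Syp, chrX:7638541-7638570, plus strand: gagccatggtGCGCAGGCGCttgctcaaaa

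A match of letters is a description and no site was tested, and members with and without a call shared these letters, as Nsf and Bsn show.

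At the 3 remaining stages no member was called in the Cre comparison by limma, and at an unadjusted p under 0.05 only Napa in the adult passed, lower with Cre. At that level 97 of 5983 genes were lower with Cre in the adult. Of all genes, 0.468% were called higher and 1.10% lower at E17.5, 0 of 5983 at P7.5, and 0.0836% higher and 0.0669% lower in adulthood. Both Cre-positive libraries were above both Cre-negative libraries for 4, 0 and 1 members at these stages in order (6.09%, 4.46% and 4.60% of genes present), and below for 4, 2 and 3 (5.81%, 6.93% and 5.08%). Snap25 shows how the controls behaved. At E17.5 it had 202 and 15.1 FPKM in Cre-positive SC and 332 and 37.2 in Cre-negative SC (-0.98 ± 1.41), and at P7.5 28.6 and 152 against 91.1 and 85.3 (-0.41 ± 1.41). In the adult it had 2682 and 1462 FPKM in Cre-positive SC and 2187 and 7449 in Cre-negative SC (-1.03 ± 1.41, adjusted p = 1). The ranges overlapped at the stages other than P0.5, so Snap25 was separated by Cre at P0.5 only among the 4 stages.

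Napa, the gene of α-SNAP, had 58.7 and 0.107 FPKM in Cre-positive SC at E17.5 and was listed at 0 in both adult Cre-positive libraries, where the Cre-negative libraries had 2.50 and 1271. Syngr3, a synaptogyrin of vesicle membranes, had 97.9 and 0 FPKM in adult Cre-positive SC and 2.02 and 1615 in Cre-negative SC. Nsf, the ATPase that separates SNAREs, had 0 and 292 FPKM in adult Cre-positive SC and was listed at 0 in both Cre-negative libraries. Values of this kind, high in 1 library and near 0 in its replicate, were frequent in the adult SC, where the estimated depth was low in all 4 libraries. Myelin genes moved with adult SC of both genotypes, as the sum of 5 oligodendrocyte markers was 735 to 990.5 FPKM with Cre and 184 to 4148 without, with Mobp and Mog at 0. Their part in these values was not tested.

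The change with stage was followed in Cre-positive SC as P0.5 against E17.5, P7.5 against P0.5, adult against P7.5, and P7.5 with adult against E17.5 with P0.5. From E17.5 to P0.5, 7 of the 31 members rose (22.6%, against 25.1% of all genes): Erc2, Erc1, Syn2, Vamp3, Cplx1, Vamp2 and Stx3. From P0.5 to P7.5, 7 members fell (22.6%, against 29.2% of all genes): Erc2, Erc1, Syn2, Vamp3, Cplx1, Vamp2 and Syp. These comparisons share the P0.5 libraries, so a member high at P0.5 alone enters both lists. Erc2 and Vamp3 passed the filter only through the P0.5 Cre-positive libraries, so their calls add no support. From P7.5 to the adult no member was called, while 0.0836% of all genes were called higher and none lower.

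In single values, Vamp2 was listed at 0 in both Cre-positive libraries at E17.5, had 0.0439 and 0 FPKM at P7.5 and was listed at 0 in both adult libraries. Its Cre-negative values were 8.77 and 0 FPKM at E17.5, 0.794 and 0 at P7.5, and 1.81 and 0 in adulthood. In retina it had 0 and 6.70 FPKM at E17.5, 0.352 and 0.779 at P0.5, 0.514 and 18.7 at P7.5, and 46.0 and 4.75 in adulthood. Vamp2 was thus high in SC at P0.5 with Cre, and in retina its highest values came later.

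Vamp3 was listed at 0 in Cre-positive SC at E17.5, had 0.225 and 0 FPKM at P7.5 and was again listed at 0 in adulthood. In Cre-negative SC its only value above 0 was 3.11 FPKM in P7.5 replicate 1. In retina Vamp3 stayed between 0 and 1.04 FPKM over the 8 libraries. Outside P0.5, Vamp3 was near the limit of measurement in nearly every library.

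Stx3 had 0 and 0.0552 FPKM in Cre-positive SC at E17.5, 0.753 and 0 at P7.5, and 0.908 and 0.260 in adulthood. Without Cre it had 0 and 16.7 FPKM at E17.5, 0.0461 and 0 at P7.5, and 12 and 0 in adulthood. Retina had 0.555 and 7.44 FPKM at E17.5, 3.15 and 0.735 at P0.5, 2.92 and 18.3 at P7.5, and 0 and 41.1 in adulthood. The retinal replicates of Stx3 lay far apart, above all in the adult.

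Cplx1 had 0.836 and 0 FPKM in Cre-positive SC at E17.5 and was listed at 0 at P7.5 and in adults. In Cre-negative SC it was above 0 in 2 libraries, with 1.64 FPKM in P7.5 replicate 1 and 5.32 in adult replicate 2. In retina it had at most 1.15 FPKM.

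Syp differed from the others at E17.5, where Cre-positive SC had 52.2 and 0.570 FPKM. Its later Cre-positive values were 0.303 and 0 FPKM at P7.5 and 0.551 and 0.315 in adulthood. The Cre-negative values were 0.841 and 0.239 FPKM at E17.5, 3.10 and 0.858 at P7.5, and 0.778 and 0 in adulthood. Synaptophysin mRNA was therefore low in the adult SC of both genotypes, and retina had 0 and 1.86, 0.304 and 0.119, 0.277 and 7.46, and 0.453 and 7.09 FPKM at the 4 stages in order.

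Sv2a had 2.63 and 0 FPKM at E17.5, 0 and 1.56 at P7.5, and 0.338 and 0 in adulthood in Cre-positive SC. Without Cre it had 3.11 and 5.09 FPKM at E17.5, 2.48 and 0.0502 at P7.5, and 57.8 and 0 in adulthood. The retina values were 0.139 and 0.528, 0.150 and 0.147, 0 and 8.98, and 21.5 and 0.902 FPKM at the 4 stages. The Cre-negative library with 57.8 FPKM is adult replicate 1, which also held photoreceptor genes and Gad1 (118 FPKM). The source of this value was not tested.

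Erc2 was listed at 0 or 0.0130 FPKM in Cre-positive SC at E17.5, and at 0 in the P7.5 and adult libraries. Its only Cre-negative value was 0.986 FPKM at P7.5, and its only retinal value 0.241 FPKM at E17.5. Dnm1, the neuronal dynamin, followed a like course in Cre-positive SC, with 2.39 and 4.57 FPKM at P0.5 and 0 at the other 3 stages. Dnm1 had 6.45 and 0 FPKM in Cre-negative SC at E17.5, 0.991 and 0 in adulthood, and in retina 1.49 FPKM in P7.5 replicate 2 and 6.26 and 0.381 in adulthood.

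**Figure D3:**
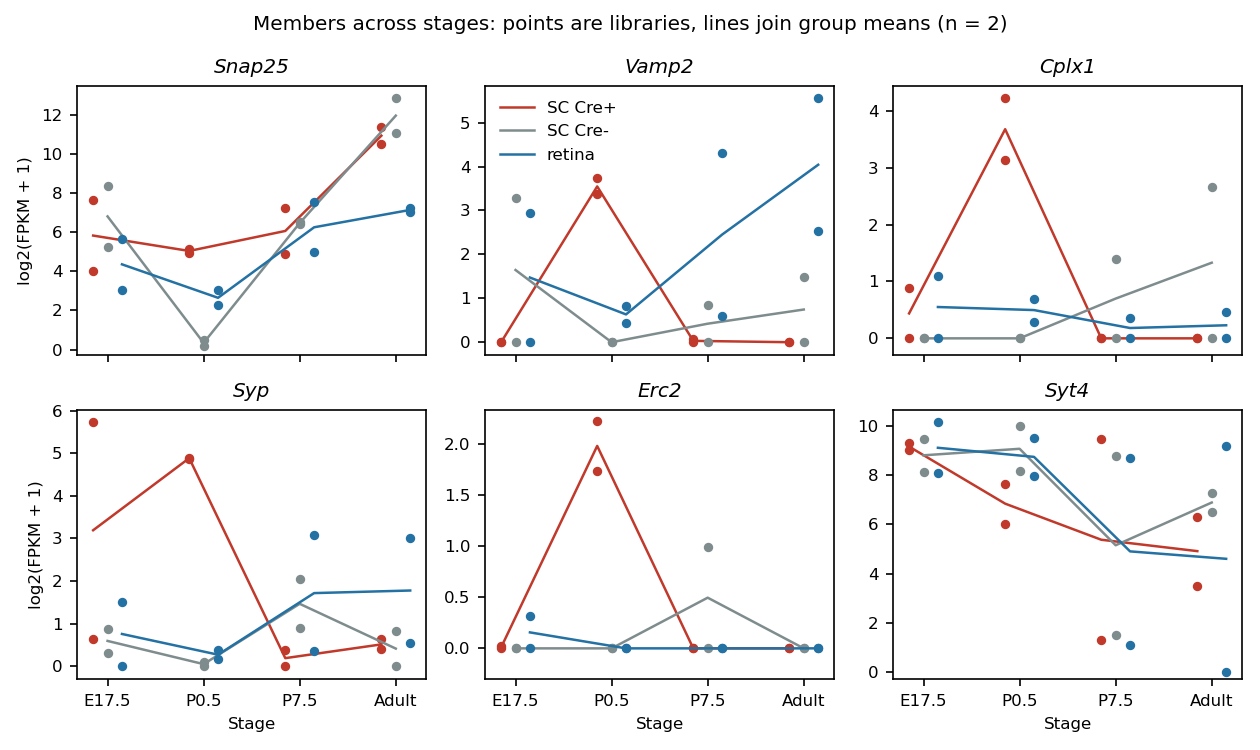
Log2(FPKM + 1) of 6 members at the 4 stages, with points for libraries and lines through group means (n = 2) of SC with Cre, SC without Cre and retina. Vamp2, Cplx1 and Erc2 peak at P0.5 in Cre-positive SC, Snap25 is highest in the adult SC with and without Cre, and the Syt4 points of P7.5 split into a high and a low library in every source.

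Over the later against the earlier stages, 7 members fell in Cre-positive SC (22.6%, against 25.8% of all genes), namely Erc2, Erc1, Syp, Cplx1, Syn2, Rims2 and Vamp3. Erc2, Syp, Rims2 and Vamp3 would not have passed the filter without the earlier Cre-positive libraries, so their calls add no support. Snap25 was the only member that rose, by 3.07 ± 0.99 on the log2 scale (adjusted p = 0.0436), where 0.719% of all genes rose. Among the settings that ended this call were a pseudocount of 0.1 (adjusted p = 0.0506), no filter (0.0757) and the absence of single libraries (highest adjusted p 0.188, without P0.5 Cre-positive replicate 1). Without Cre, Snap25 had 0.152 and 0.390 FPKM at P0.5 and 2187 and 7449 in adulthood, and the difference between the genotypes in that change did not pass (interaction -2.58 ± 1.41, adjusted p = 0.330).

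Whether the Cre difference itself changed between stages was tested as an interaction. From E17.5 to P0.5 it grew for 5 of 31 members (16.1%, against 23.9% of all genes): Erc2, Vamp2, Vamp3, Dnm1 and Stx3, and it fell for none (3.23%). From P0.5 to P7.5 it fell for 4 members (12.9%, against 18.7%), Erc2, Vamp3, Cplx1 and Syp, and grew for none (2.74%). Between the earlier and the later stages it fell for Erc2 and Cplx1 (6.45%, against 11.6%) and grew for none (2.24%). In each of the 3 comparisons the share of members was below that of all genes. Erc2, Vamp3 and Dnm1 passed the filter only through the P0.5 Cre-positive libraries, so their interaction calls add no support.

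Stx1a and Syt1 are the textbook neuronal syntaxin and the calcium sensor of fast release. Stx1a had 16 and 2.85 FPKM in Cre-positive SC at P0.5 and was listed at 0 in Cre-negative SC (3.02 ± 1.96, adjusted p = 0.327). Its other values above 1 FPKM in SC were 85.9 in Cre-negative E17.5 replicate 1, 32.9 in Cre-positive P7.5 replicate 2 and 1.34 in Cre-positive adult replicate 1. The remaining SC libraries had 0.0408 FPKM (Cre-positive E17.5 replicate 2), 0.299 (Cre-negative P7.5 replicate 2) or 0. In retina Stx1a had 0 and 0.988, 0.665 and 0.336, 0 and 1.27, and 0 and 0.865 FPKM at the 4 stages, so both libraries of a group exceeded 1 FPKM in Cre-positive SC at P0.5 and in no other group.

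Syt1 was listed at 0 in all 4 SC libraries of P0.5. In Cre-positive SC it had 0.114 and 0 FPKM at E17.5, 0 and 0 at P7.5, and 7.49 and 0 in adulthood, and in Cre-negative SC 33.7 and 0, 0.0312 and 0.288, and 1.18 and 0. Retina had 0.25 and 0.674, 0.123 and 0.0804, 0.0842 and 5.87, and 6.10 and 4.69 FPKM at the 4 stages. The calcium sensor was thus not measurable in the P0.5 libraries in which its SNARE partners Snap25 and Vamp2 were called.

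Between Cre-positive SC and retina, 33 members could be tested, and Stx4a, Vamp1, Syngr1, Bsn, Pclo, Rims1, Ppfia3, Snap91 and Synj1 could not. At P0.5, 10 members were called higher in SC (30.3%, against 32.7% of all genes) and none lower (2.01%): Erc1, Erc2, Syn2, Vamp3, Cplx1, Syn1, Sv2a, Syp, Syngr3 and Dnm1. Erc1 (4.11 ± 0.44, adjusted p = 3.3e-05) and Syn2 (3.005 ± 0.508, adjusted p = 0.000715) were among them although they were as high in Cre-negative SC. Erc1, Erc2, Syn1, Syn2, Vamp3 and Cplx1 passed the filter of this fit only through the P0.5 Cre-positive libraries. These members had to differ, so their p-values add no support. Syngr3 had 124 and 64.3 FPKM in SC against 0.628 and 0.255 in retina (5.98 ± 1.98, adjusted p = 0.0350). Snap25, at 2.40 ± 1.40, did not pass (adjusted p = 0.233). No member was called at the remaining stages, E17.5, P7.5 and adult, where 0.570%, 0.0158% and 0.0949% of all genes were called higher in SC and 0.744%, 0 and 0 lower.

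In the adult, 2 members passed in each direction at an unadjusted p under 0.05. Of all 6321 genes, 133 were higher and 359 lower in SC at that level. Snap25 (3.801 ± 1.40, adjusted p = 0.475) and Cplx2 (3.97 ± 1.73, adjusted p = 0.603) were higher in SC, and Vamp2 (-4.04 ± 1.35, adjusted p = 0.383) and Dnm1 (-1.66 ± 0.69, adjusted p = 0.566) were higher in retina. None of them passed the adjustment.

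Within retina, 24 members were tested for P7.5 with adult against E17.5 with P0.5, and none was called, where 0.221% of all 4080 genes rose and 0.735% fell. Of these members 20 had a higher value at the later stages, with a median of 1.02 on the log2 scale against 0.06 over all genes. The 6 photoreceptor markers summed to 0 to 0.949 FPKM in the earlier retina libraries, to 1.565 and 290.9 at P7.5 and to 605.5 and 223.7 in adulthood, and their part in these values was not tested. Snap25 was the member with an unadjusted p under 0.05 (3.20 ± 1.13, adjusted p = 0.239), with 7.32 and 49.9 FPKM at E17.5, 7.21 and 3.8 at P0.5, 30.7 and 184 at P7.5, and 132 and 151 in adulthood. Over all 4080 genes, 197 rose at that unadjusted level. Cplx3, a complexin of ribbon synapses, was above 1 FPKM in 3 retina libraries (E17.5 with 2.62, P7.5 with 10.7 and adult with 9.35 FPKM, replicate 2 each time). It was also above 1 FPKM in 1 SC library, at 5.34 in Cre-negative adult replicate 1. That replicate held photoreceptor genes too, and their part in this value was not tested. Syt2 was above 0 only in retina, with at most 3.18 FPKM.

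At P7.5 the replicate number divided some members in the same way in every source. Sv2b, the second SV2 glycoprotein, had 72.7, 36.7 and 838 FPKM in replicate 1 of SC with Cre, SC without Cre and retina, and 0.177, 0.201 and 2.07 in replicate 2. Unc13a, the vesicle-priming protein Munc13-1, had 126, 64.6 and 10.6 FPKM in replicate 1 and 0.631, 0.602 and 0.234 in replicate 2. Syt4 went the other way, with 1.44, 1.84 and 1.13 FPKM in replicate 1 and 708, 445 and 419 in replicate 2. For these genes the replicates differed by more than the tissues or genotypes did, and all were picked out after their values were seen.

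Cplx2, the complexin of forebrain and retina, was the remaining member of that kind. It had 387, 245 and 730 FPKM in replicate 1 and 23.9, 28.5 and 39.9 in replicate 2 at P7.5. These 4 members exceeded a log2 difference of 2 between replicates in all 3 sources with the same sign, a pattern found in 3.8% of 5322 genes at P7.5 and in no member at the other stages. At E17.5 Cplx2 had 37.5 and 13.2 FPKM in Cre-positive SC, 90.7 and 14.9 in Cre-negative SC, and 62.5 and 13.7 in retina. At P0.5 the order was opposite, with 4.48 and 37.9, 7.93 and 79.1, and 10.8 and 43.7. In the adult it had 226 and 330, 222 and 877, and 7.6 and 34.3 FPKM. The ranges of Cplx2 with and without Cre overlapped at all 4 stages.

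Ppfia2 was the most evenly present scaffold. In Cre-positive SC it had 17.6 and 35.9 FPKM at E17.5, 11.6 and 57.5 at P7.5, and 6.45 and 47.7 in adulthood, beside the P0.5 values above. In Cre-negative SC it had 7.76 and 33.6, 10.4 and 32.3, and 15.4 and 0, and in retina 3.1 and 24, 6.74 and 3.87, 3.74 and 38.6, and 18.2 and 52.8 FPKM at the 4 stages. Its ranges with and without Cre overlapped at all 4 stages.

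Vamp4, a VAMP of endosomes and the trans-Golgi, was listed at 0 in all 4 SC libraries of P0.5. In Cre-positive SC it had 24.7 and 4.82 FPKM at E17.5, 4.34 and 11 at P7.5, and 3.23 and 105 in adulthood, and in Cre-negative SC 0 and 0.117, 3.89 and 18.8, and 281 and 0. Retina had 0.485 and 6.86, 0.416 and 0.271, 1.30 and 14.4, and 23.9 and 4.16 FPKM. Vamp1, the VAMP of hindbrain and spinal synapses, was above 0 only in Cre-negative P7.5 replicate 1 (0.223 FPKM) and retina P0.5 replicate 1 (0.0546 FPKM).

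The remaining members were mostly low. Rims1 was listed at 0 in all 16 SC libraries and reached at most 0.221 FPKM in retina, and Stx4a had a single value, 1.40 FPKM, in retina. The large active zone scaffolds Bsn and Pclo reached at most 2.77 and 5.17 FPKM, both in Cre-negative SC. Synj1, the lipid phosphatase synaptojanin, had its highest values of 57.1 and 19.2 FPKM in Cre-negative SC. Sh3gl2, the gene of endophilin A1, had its highest of 47.7 FPKM in Cre-positive P7.5 replicate 2, against 0 in its replicate. Syn1 reached 5.86 FPKM in Cre-positive SC at P0.5, 24.5 in Cre-negative adult replicate 1 and at most 0.651 in retina. Amph, Snap91, Syngr1, Synpr, Stx7 and Stx12 were above 1 FPKM in at most 4 of the 24 libraries each.

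The run-off experiment addressed whether ribosomes on an mRNA were moving. Elongating ribosomes were allowed to finish in reticulocyte lysate while harringtonine and 4E1RCat blocked new initiation, so mRNA on moving ribosomes should be lost from the HA precipitate. In SC the library with run-off had 349395 reads on genes, 10.7% of the 3262914 without, and in retina 315009 reads, 6.72% of 4686284. With 1 library each, the values below compare libraries and not conditions, and an interval covers counting error alone, because amplified reads that carry no molecular identifier are not separate molecules.

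In SC, 28 members had at least 10 reads summed over both libraries, and 26 had fewer reads with run-off (92.9%, against 90.0% of all such genes). The library totals differed in the same direction, so fewer raw reads for most genes follow from the totals. Whether the totals reflect run-off or sequencing depth was not tested. No read was left for 13 of the 28 (46.4%, against 49.1%). In retina 36 of 37 members had fewer reads (97.3%, against 93.2%), and 14 had none left (37.8%, against 52.3%). Set against the library totals as CPM, 22 of 28 members in SC and 21 of 37 in retina were lower with run-off, and 75.3% and 67.6% of all genes were. In SC, 19 members were below 0.5 of their CPM (67.9%, against 69.2%) and 3 were above 2 times (10.7%, against 17.9%), and in retina 17 (45.9%, against 60.2%) and 8 (21.6%, against 23.6%).

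The 5 members with the most reads in SC without run-off kept between 8.10% and 18.3% of them. Snap25 had 10406 reads without and 1142 with run-off, which is 10.97% (exact 95% interval 10.3 to 11.7), or 3189 and 3269 CPM. Ppfia2 had 2297 and 186 reads (8.10%, 6.94 to 9.41), Cplx2 had 1362 and 139 (10.2%, 8.51 to 12.2), Vamp1 had 1179 and 177 (15.01%, 12.75 to 17.6) and Vamp4 had 1108 and 203 (18.3%, 15.7 to 21.3). The intervals of Snap25 and Cplx2 held the 10.7% of the whole library, that of Ppfia2 lay below it, and those of Vamp1 and Vamp4 lay above it. Without scaling all 5 had fewer reads, and as CPM they had ratios of 1.025, 0.756, 0.953, 1.40 and 1.71.

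Other members had few or no reads left in SC. Nsf had 681 reads without and 6 with run-off (0.881%, 0.322 to 1.93), Sh3gl2 had 538 and 1 (0.186%, 0.00470 to 1.04), Synj1 had 399 and 2 (0.501%), Vamp2 had 267 and 1 (0.375%) and Unc13a had 233 and 1 (0.429%). No read was left of 434 for Stx4a, which allows up to 0.691%, of 351 for Dnm1 (0.855%), of 280 for Ppfia3 (1.07%), of 246 for Pclo (1.22%), of 194 for Syn2 (1.55%) or of 190 for Syn1 (1.58%). In all, 17 of the 28 members had an interval below the 10.7% of the whole library (60.7%, against 56.6% of all such genes), so the share of members was close to the background.

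The exceptions in SC were Bsn, with 0 reads without and 71 with run-off, Napb, the β-SNAP gene, with 8 and 94, and Syt11, with 213 and 123 (57.75%, 45.9 to 72.4). In retina the same genes gave 75 and 7, 224 and 27, and 145 and 3 reads. Conversely Syn2 had 4 and 36 reads in retina, Nsf 221 and 101 (45.7%, 35.75 to 58.1) and Erc2 71 and 41 (57.75%, 38.3 to 86.0). No member kept more than its library's share by over 2 times in both tissues.

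**Figure D4:**
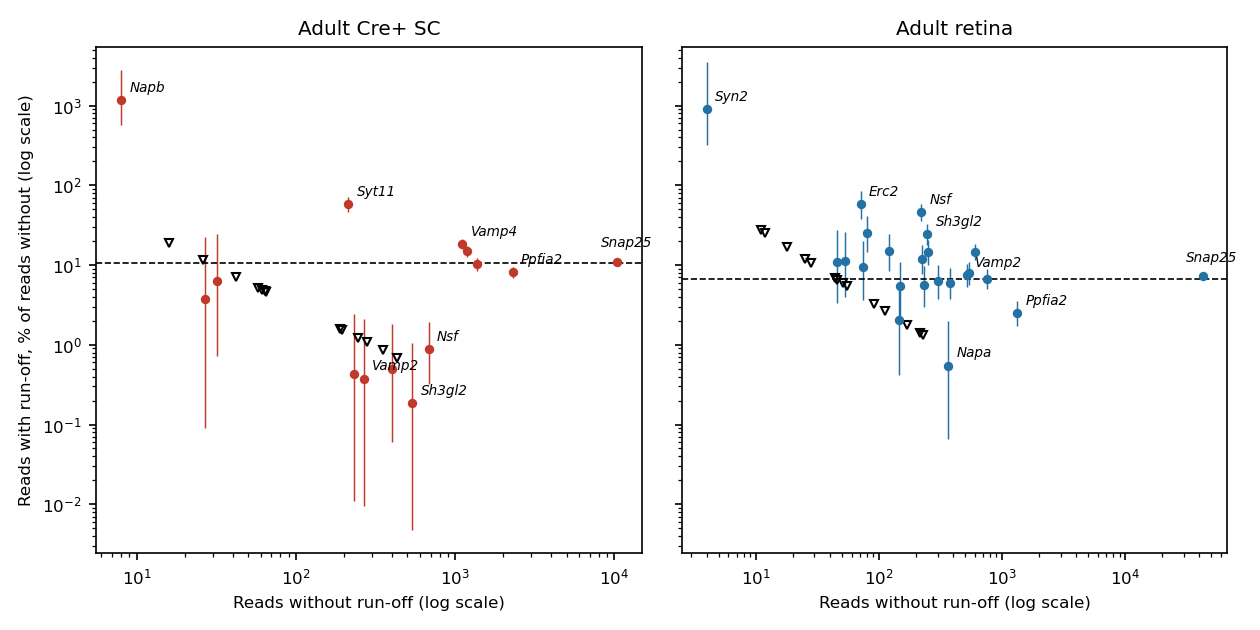
Reads with run-off as a percent of reads without (log scale) against reads without run-off (log scale), for members with 10 reads or more in adult Cre-positive SC and retina. Filled points have exact 95% intervals, open triangles mark the upper limit for members with no read left, the dashed line is the whole library (10.7% and 6.72%), and Bsn in SC, with 0 reads without run-off, is not drawn. Snap25 lies on or close to the line in both tissues and Vamp2 far below it in SC only.

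In retina Snap25 had 42544 reads without and 3062 with run-off (7.20%, 6.94 to 7.47), slightly above the 6.72% of the whole library. Vamp2 had 518 and 39 reads in retina (7.53%, 5.29 to 10.4), where its SC share was 0.375% (0.00945 to 2.11). Vamp1 had 227 reads and none left in retina, which allows up to 1.32%, where its SC share was 15.01%. Snap25 had CPM ratios of 1.025 in SC and 1.071 in retina, so its shares followed the library totals. Vamp2 and Vamp1 kept different shares of reads in the 2 tissues, with intervals or limits that lay apart. Those intervals treat amplified reads as separate molecules, so the error in counts of molecules is not known from them. With 1 library each the difference between tissues was not tested.

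The run-off libraries and the FPKM libraries of the adult SC did not list the same members. Vamp1 was listed at 0 FPKM in all 4 adult SC libraries but had 1179 reads in SC without run-off. Dnm1, Syn2 and Stx4a were listed at 0 in both adult Cre-positive FPKM libraries and had 351, 194 and 434 reads. Syngr3, Sv2b and Stx3 had values above 0 in at least 1 adult Cre-positive FPKM library and no read in either SC run-off library. Snap25, Cplx2 and Ppfia2 were present in both kinds of data.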

How the data were processed

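Axon-TRAP was sequenced in 24 libraries (12 groups, 2 replicates each) and ribosome run-off in 4. The labels name C57BL/6, and cDNA was amplified by PCR. The authors mapped reads to mm10 with TopHat2 2.0.12 and deposited, for the 24 libraries, FPKM made with Cufflinks 2.2.1 and, for run-off, raw read counts per gene made with HTSeq 0.6.1p1, per the submitters' processing notes. Of 23995 genes, 4 had a missing entry and were left out of the fits; no member was among them. The 42 members, the 81 other presynaptic genes and the marker lists were chosen with earlier results of these data known.

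Groups and replicate numbers come from the sample labels. Values were analysed as log2(FPKM + 1) with limma 3.58.1 (trend and robust moderation, R 4.3.3) for genes at 1 FPKM or more in at least 2 libraries of the fit. The 16 SC libraries were fitted together (5983 genes), the retina libraries alone (4080), and Cre-positive SC with retina (6321). Tests are two-sided, with Benjamini-Hochberg adjustment within a contrast over all genes tested and a threshold of 0.05. Fitted differences understate the change of low genes. The fit was run on simulated normal values with the same spread for every gene. The measured values hold many zeros and unequal spreads, so that run does not show how the fit performs on them. Run-off reads were compared without scaling, with exact binomial (Clopper-Pearson) 95% intervals on the split of reads, for genes with 10 reads or more; a count of 0 allows up to 3 reads. Alternatives were a pseudocount of 0.1, no filter, median-ratio scaling, the replicate number as a block, a fit of each stage alone, each library left out in turn, CPM and a minimum of 1 read, and, chosen after seeing the data, leaving out Cre-negative E17.5 replicate 1 and Cre-negative adult replicate 2, whose median correlation with the others was the lowest after that of P0.5 Cre-positive replicate 1. Depth was estimated from the lowest step of FPKM times length among genes with 1 transcript (GENCODE, GRCm38), and is approximate. Full values are given for members called in a Cre comparison or an interaction, for Snap25, Stx1a, Vamp2 and Syt1, and for the 5 members with the most reads in SC without run-off. Promoters are RefSeq, GRCm38.p6. Protein sequences were not used here. Figures used matplotlib 3.10.9, and tables and intervals pandas 2.3.3 and scipy 1.17.1 under Python 3.11.15.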

Additional observations from a re-analysis of the deposited data

Results flagged for a closer look

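The Cre difference changed between stages for 7 members by the interaction test in limma (adjusted p under 0.05), on the log2(FPKM + 1) scale. From E17.5 to P0.5 it grew by 3.57 for Dnm1, 1.97 for Erc2, 6.41 for Stx3, 5.19 for Vamp2 and 2.80 for Vamp3. From P0.5 to P7.5 the interaction was -4.38 for Cplx1, -2.47 for Erc2, -6.11 for Syp and -3.67 for Vamp3, and between the earlier and the later stages it was -3.07 for Cplx1 and -1.24 for Erc2. The E17.5 part of Dnm1 and Vamp2 came from Cre-negative replicate 1 (6.45 and 8.77 FPKM) and that of Stx3 from Cre-negative replicate 2 (16.7 FPKM), while Vamp3 was listed at 0 in all 4 SC libraries of E17.5. Cre-negative E17.5 replicate 1 had the lowest estimated depth of all libraries, so low values there rest on few fragments. All 11 values involve the P0.5 Cre-positive pair. Dnm1, Erc2 and Vamp3 passed the filter only through that pair, so their interaction calls add no support.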

How the results depend on the processing

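The count of members called higher at P0.5 (8) was 14 of 22 members in a fit of that stage alone and 6 to 10 under the other settings with all replicates of P0.5. With the replicate number as a block, 1 member (Syt4) was called lower at P0.5 and 1 fell in retina, against 0 without it, and the counts of the later-stage rise (1) and of the later-stage interaction (2) became 0. Same-numbered replicates of Cre-positive and Cre-negative SC deviated together at E17.5, P0.5 and P7.5 (r = 0.417, 0.426 and 0.324) and less so in the adult (0.0595), and those of Cre-positive SC and retina at 0.126, 0.4, 0.346 and -0.03. Pairs were taken only where every stage exceeded 0.1. E17.5, P0.5 and P7.5 each exceeded it and the adult did not, so the block was kept as an alternative. With the block the adjusted p was 0.0619 for Sv2a at P0.5 and 0.0530 for the later-stage rise of Snap25. The later-stage rise also became 0 with a pseudocount of 0.1 and with no filter. The interaction from E17.5 to P0.5 went from 5 to 2 with no filter, and the later-stage interaction from 2 to 0 with no filter and 4 with a pseudocount of 0.1. Without Cre-negative E17.5 replicate 1 and Cre-negative adult replicate 2, 2 members (Sv2a and Syn1) were called lower in the adult Cre comparison, and the falls from P0.5 to P7.5 were 11, the later-stage falls 12, and the interactions that fell 8 and 6. As CPM, 21 of 37 members were lower in the retina run-off. Snap25's Cre difference at E17.5 was 0.58 without those 2 libraries, and ranged from -2.81 to 0.85 with each library left out; at P7.5 it ranged from -1.59 to 0.78.

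With each library left out in turn, the counts of members ranged as follows. Each such fit left 1 library in a group, and shares of all genes are not set beside these counts, so they are a description only. The Cre comparison called 0 to 3 higher and 0 to 4 lower at E17.5, 1 to 3 higher at P0.5, and 0 to 1 higher and 0 to 2 lower in the adult. Within Cre-positive SC, 1 to 6 rose and 0 to 1 fell from E17.5 to P0.5, 0 to 1 rose and 1 to 5 fell from P0.5 to P7.5, 0 to 1 rose from P7.5 to the adult, and 0 to 1 rose and 0 to 8 fell over the later stages. The interaction grew for 0 to 7 and fell for 0 to 1 from E17.5 to P0.5, and fell for 0 to 3 from P0.5 to P7.5 and for 0 to 6 over the later stages. In retina 0 to 1 rose and 0 to 1 fell, and against retina 0 to 3 were higher in SC at E17.5, 2 to 6 at P0.5 and 0 to 1 at P7.5. The cause of these changes was not tested, and fewer libraries leave fewer degrees of freedom. Median-ratio scaling moved the median of all genes by over 0.1 in 2 contrasts, retinal late against early stages (0.06 to -0.06) and SC against retina at P0.5 (1.10 to 0.98).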

Other observations

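The 8 members called at P0.5 had a median transcript length of 1692 bases (1312 to 4334), against 3265 for the other 34 members and 1826 over all genes with a length, values that are given as a description.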
